A study of Rattus norvegicus with 6 samples.

Results

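Innate immune sensing and NF-kB signaling were described here through 45 genes of Toll-like receptors, their adaptors and kinases, NF-kB subunits and inhibitors, and the inflammasome, compared between HQYDP and DM rat kidneys. The genes came from a list, and each was read from the array row that carries its symbol and no other. Of the 45, 39 had such a row, among 18166 genes in all, with 12 receptors and cofactors, 10 adaptors and kinases, 12 NF-kB genes and 5 inflammasome genes. Tlr8, Tlr9, Ticam1, Tnfaip3, Nlrc4 and Aim2 had no row of this kind and were not analysed here. Each of the 39 had a single row, so no choice between rows was made.

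The data were log2 expression values from Affymetrix Rat Gene 2.0 ST arrays, which read short probes along each transcript, of 3 HQYDP rats and 3 DM rats. All 6 were Sprague-Dawley rats, 17 weeks old by the labels, made diabetic with streptozotocin, a toxin of insulin-producing β cells, at 60 mg/kg. The HQYDP rats were then gavaged for 8 weeks with Qishen Yiqi dripping pill (QYDP), a compound of astragalus, redroot sage, pseudoginseng and rosewood, at 300 mg/kg/day, and the DM rats with saline. The labels give kidney as the tissue and no dose, so the cortex, the streptozotocin and the dose come from the methods of the study. Non-diabetic and low-dose rats were not analysed here, so these values do not place either group against a healthy kidney. Only the DM arrays are marked as re-analysed in the labels, and if that means a separate run, its effect and that of QYDP cannot be told apart.

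Toll-like receptors are membrane sensors of microbial products and of molecules released by injured cells. They signal through the adaptor Myd88 and the Irak kinases to the ubiquitin ligase Traf6 and on to the IκB kinases, which free NF-kB dimers from their inhibitors. NF-kB then switches on chemokines, cytokines, adhesion molecules and also its own inhibitors. Inflammasomes are cytosolic complexes that activate Casp1, which matures interleukin-1β and cleaves Gsdmd. In the kidney both tubular cells and resident or infiltrating leukocytes carry parts of this system.

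Most of these genes had lower means in HQYDP than in DM kidneys, but few differences passed the cut-offs of the study and none passed after adjustment. With the cut-offs that the study used, p under 0.05 without adjustment and more than 1.5-fold, 4 of 39 genes were lower, Lbp, Syk, Nfkbiz and Pycard, against 1.82% of all genes tested. None was higher, against 1.46% of all genes. With Benjamini-Hochberg adjustment of limma's moderated test none of the 39 passed an adjusted p under 0.05, which 0.0165% of all genes did, and the smallest adjusted p among them was 0.329. At an unadjusted p under 0.05 with no fold minimum 9 of the 39 passed, all of them lower, against 7.38% of all genes in either direction, and no gene passed the adjusted threshold with the methods' t-test either. In 12 of the 39 genes every HQYDP array lay below every DM array, against 6.01% of all genes. The reverse order, found in 6.08% of all genes, was seen in 0 of the 39. The log2 difference was below 0 in 36 of 39 genes, against 50.3% of all genes, and its median was -0.32, with a median of -0.00 over all genes. The genes share arrays and partly share cells, so these counts are not independent of each other. In whole tissue, fewer cells of a type and less RNA per cell cannot be told apart. The exact permutation test of 3 rats against 3 cannot give a p below 0.1.

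**Figure D1:**
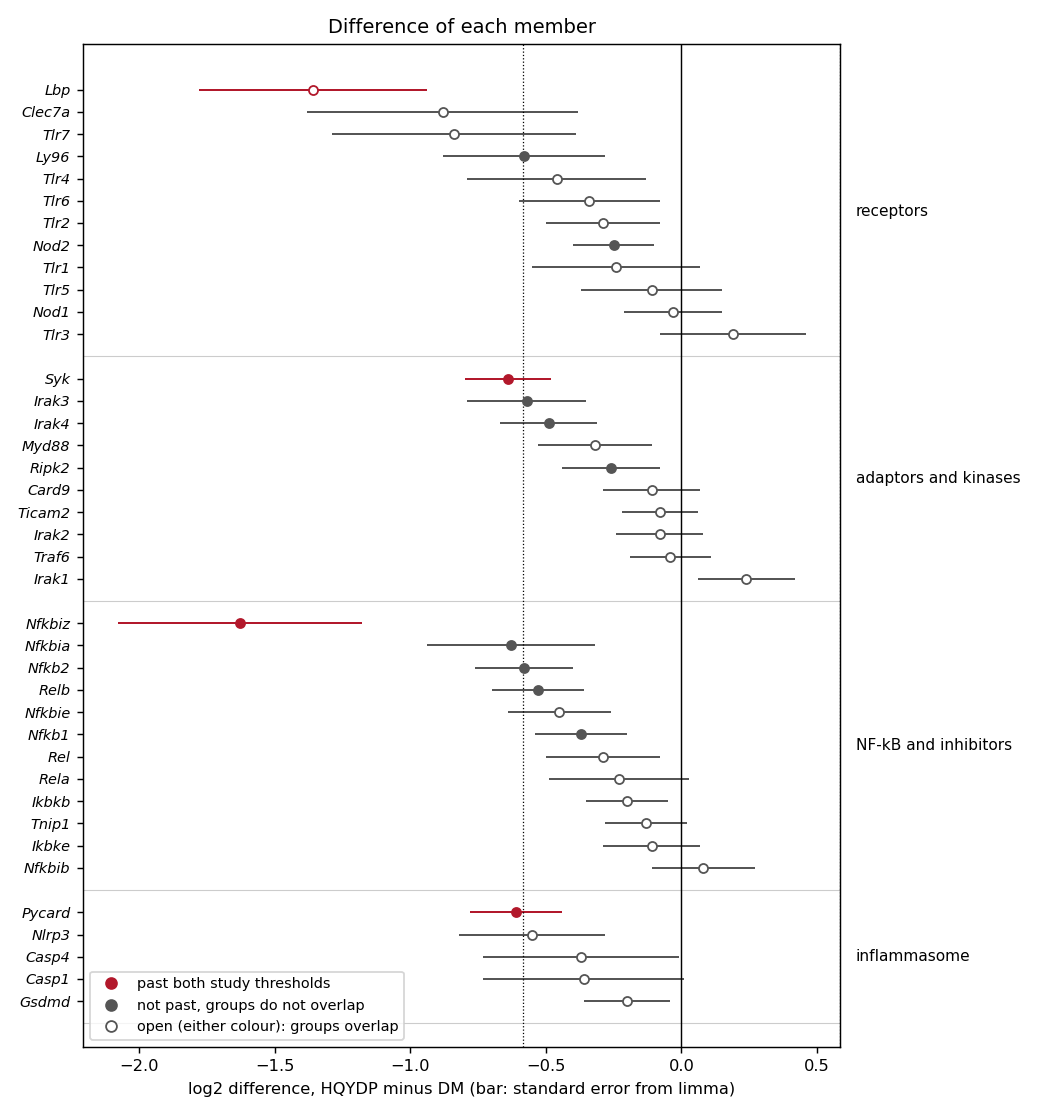
Log2 difference of HQYDP minus DM for each of the 39 genes, by role, with bars for the standard error from limma and dotted lines at a fold of 1.5. Lbp, Syk, Nfkbiz and Pycard, in red, passed both study thresholds, and filled points mark the 12 genes whose groups did not overlap.

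Among the receptors and their cofactors 1 of 12 genes was lower at the study thresholds, against 1.82% of all genes. The median log2 difference of the group was -0.32. Single arrays moved the count and the median. The median was -0.08 without DM replicate 2. Without DM replicates 1 and 3, 2 and 5 genes were lower, against 1.87% and 4.02% of all genes in those fits. Lbp, which encodes the lipopolysaccharide-binding protein that hands endotoxin to its receptor, had log2 values of 6.13, 5.92 and 5.71 in HQYDP and 8.02, 7.71 and 6.10 in DM replicates 1, 2 and 3. DM replicate 3 lay within the HQYDP range, and the other DM arrays lay far above it. The HQYDP mean was 5.92 ± 0.21 (SD, n = 3) and the DM mean 7.28 ± 1.03 (SD, n = 3). HQYDP was 2.56-fold lower, with a log2 difference of -1.36, a standard error of 0.42 and an adjusted p of 0.453 from limma. Lbp passed the study thresholds with each array left out in turn, with log2 differences of -1.95 to -0.98. Its unadjusted p from limma was close to the threshold without DM replicate 1, at 0.0428, and without DM replicate 2, at 0.0444. It did not pass with the methods' t-test. Without DM replicate 3 its adjusted p from limma was 0.00424. In that fit 151 of all genes had an adjusted p under 0.05, against 3 with all 6 arrays. Lbp is an acute phase protein of the liver that renal tubules can also make.

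Cofactors and relatives of the endotoxin receptor followed with smaller differences that did not pass the thresholds. Ly96, the MD-2 subunit that binds endotoxin on Tlr4, had 3.55, 3.20 and 3.50 in HQYDP against 3.57, 4.78 and 3.65 in DM. Its groups did not overlap, but DM replicates 1 and 3 were barely above the highest HQYDP array, and the log2 difference of -0.58 was -0.19 without DM replicate 2. Tlr4 itself had 5.48, 5.30 and 5.67 in HQYDP against 5.96, 6.70 and 5.16 in DM, so that DM replicate 3 was the lowest of all 6 arrays. Its log2 difference was -0.46 (standard error 0.33), with -0.08 without DM replicate 2 and -0.85, past the study thresholds, without DM replicate 3.

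Tlr7, an endosomal sensor of single-stranded RNA, had 4.99, 5.30 and 4.63 in HQYDP against 5.53, 7.03 and 4.88 in DM, for a log2 difference of -0.84 (standard error 0.45). Clec7a, the β-glucan receptor Dectin-1 of myeloid cells, had 6.38, 5.88 and 5.81 against 7.05, 8.06 and 5.59, a log2 difference of -0.88 (standard error 0.50). In both genes DM replicate 2 was the highest array and DM replicate 3 overlapped with HQYDP. Without DM replicate 2 the differences were -0.23 and -0.30, so that much of them came from that array.

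Nod2, a cytosolic sensor of bacterial peptidoglycan, was the other receptor without overlap. It had 4.66, 4.43 and 4.41 in HQYDP and 4.82, 4.77 and 4.67 in DM, a small log2 difference of -0.25 (standard error 0.15). Its relative Nod1 had a log2 difference of -0.03. The remaining Toll-like receptors overlapped between the groups. Tlr1, Tlr2 and Tlr6, which pair to bind lipopeptides, had log2 differences of -0.24, -0.29 and -0.34, and the flagellin receptor Tlr5 had -0.11. The first 3 were -0.02, -0.08 and -0.06 without DM replicate 2. Tlr1 and Tlr6 are close paralogs, and how well their probes tell them apart was not tested. Tlr3, the sensor of double-stranded RNA, was the only receptor with a higher mean in HQYDP, with 8.47, 8.62 and 8.46 against 8.48, 8.85 and 7.65, a log2 difference of 0.19 (standard error 0.27). DM replicate 3 was the lowest array, and without it the difference turned to -0.15.

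**Figure D2:**
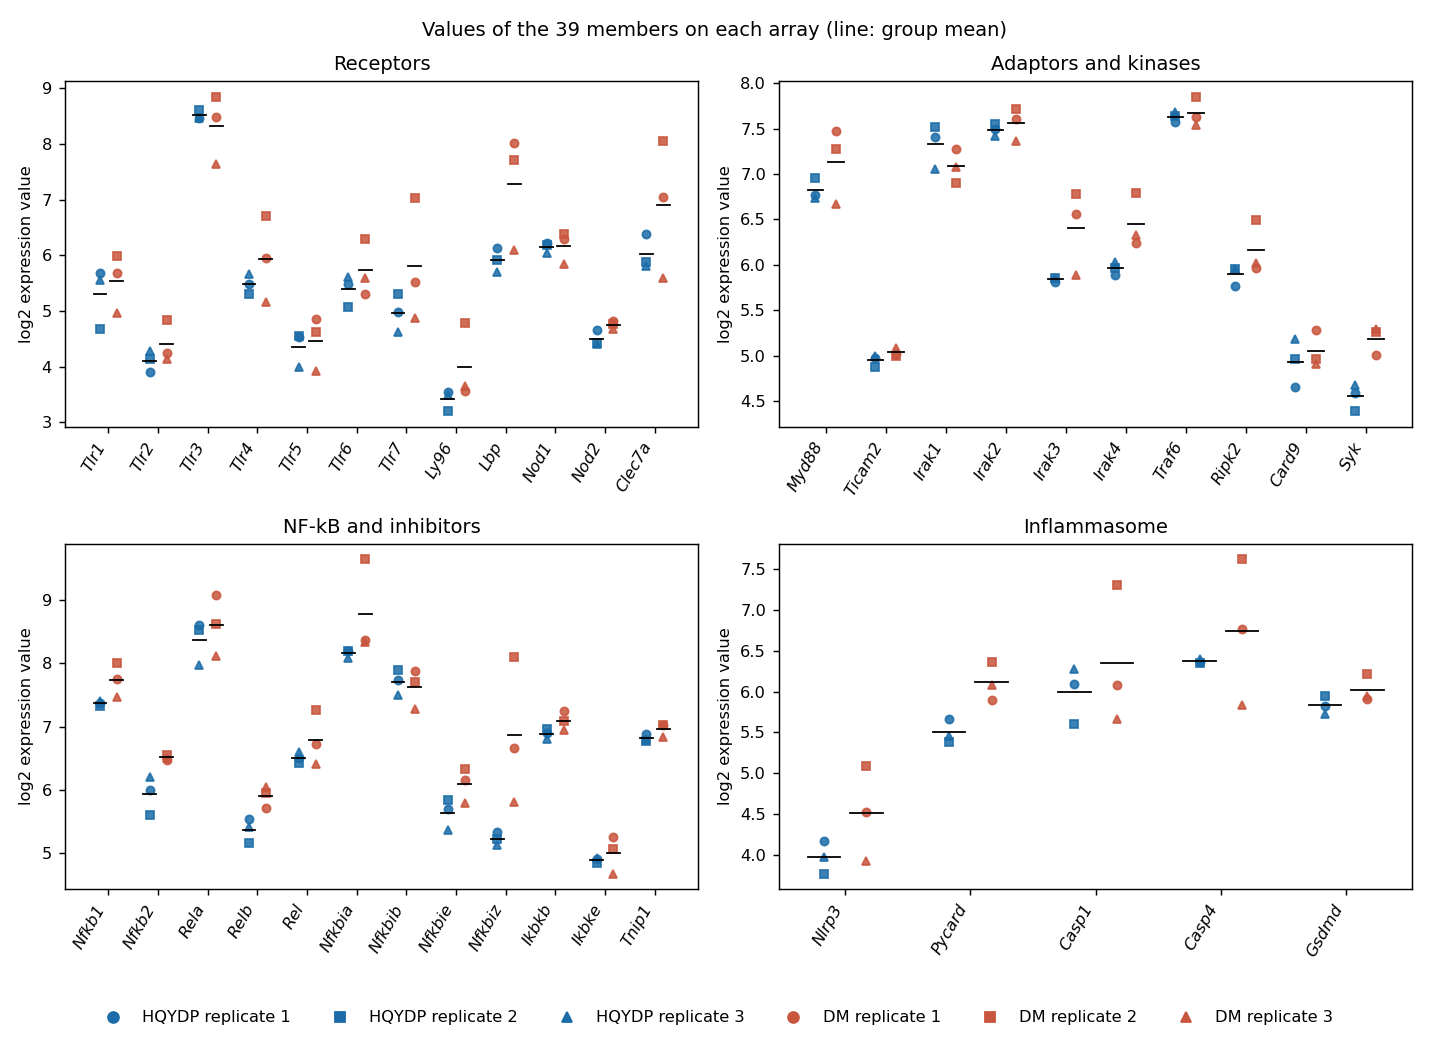
Log2 value of each gene on each of the 6 arrays, with HQYDP in blue, DM in red, a marker shape for each replicate number and a line at each group mean. DM replicate 2, the red square, is the highest array in 25 of 39 genes, and DM replicate 3, the red triangle, lies below the highest HQYDP array in 25 of 39, as it does in 73.2% of all genes.

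Of the adaptors and kinases 1 of 10 was lower at the study thresholds, against 1.82% of all genes, and the median log2 difference was -0.19. The count was 0 without HQYDP replicate 2 and 2 without DM replicate 1 or 3, against 1.45%, 1.87% and 4.02% of all genes in those fits. The median was -0.12 without DM replicate 1. Syk, the tyrosine kinase that carries signals of Dectin-1 and of immune receptors, had 4.59, 4.39 and 4.68 in HQYDP and 5.01, 5.26 and 5.30 in DM. Here all 3 DM arrays, DM replicate 3 included, lay above all HQYDP arrays. The group values were 4.55 ± 0.15 (SD, n = 3) and 5.19 ± 0.16 (SD, n = 3), so that HQYDP was 1.56-fold lower, with a log2 difference of -0.64, a standard error of 0.16 and an adjusted p of 0.329 from limma. Without HQYDP replicate 2 it was -0.56 and did not pass the fold threshold. Syk stands in the gene tables of the study, which chose it on these samples, so its passing is not independent evidence. Card9, the adaptor downstream of Syk, had a log2 difference of -0.11 (standard error 0.18), with overlapping groups.

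The Irak family was split. Irak3, also called IRAK-M, is an inhibitory member found mainly in monocytes and macrophages. It had 5.81, 5.86 and 5.86 in HQYDP against 6.56, 6.78 and 5.89 in DM, for a log2 difference of -0.57 (standard error 0.22), with DM replicate 3 just above the HQYDP arrays. Irak4, the kinase that starts signaling from Myd88, had 5.89, 5.97 and 6.03 against 6.24, 6.79 and 6.33, a log2 difference of -0.49 (standard error 0.18). Both had groups that did not overlap and an unadjusted p under 0.05, but a fold under 1.5. Irak1, in contrast, had 7.41, 7.52 and 7.05 in HQYDP and 7.28, 6.90 and 7.08 in DM, for a log2 difference of 0.24 (standard error 0.18), and Irak2 had -0.08. The differences between Irak members were not tested.

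The shared adaptors differed little. Myd88 had 6.77, 6.96 and 6.74 in HQYDP against 7.47, 7.27 and 6.67 in DM, for a log2 difference of -0.32 (standard error 0.21). Ripk2, the kinase that serves Nod1 and Nod2, had 5.77, 5.96 and 5.96 against 5.97, 6.49 and 6.02, so that its groups were apart by a narrow gap, with a log2 difference of -0.26 (standard error 0.18). Traf6 had -0.04 (standard error 0.15) and Ticam2, the adaptor that links Tlr4 to interferon signaling, -0.08 (standard error 0.14). These differences were within about 2 standard errors of 0.

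In the NF-kB group 1 of 12 genes, Nfkbiz, was lower at the study thresholds, against 1.82% of all genes. In 5 of the 12 the groups did not overlap, with HQYDP lower, against 6.01% of all genes. The median log2 difference was -0.33, and -0.21 without DM replicate 2. The count was 3 without HQYDP replicate 1 or DM replicate 3, 2 without HQYDP replicate 3 and 4 without DM replicate 1. In the same order, 2.02%, 4.02%, 1.76% and 1.87% of all genes were lower in those fits. Nfkbiz, an atypical nuclear IκB protein that is itself induced by Toll-like receptor signals, had 5.34, 5.23 and 5.13 in HQYDP and 6.67, 8.10 and 5.81 in DM. The HQYDP arrays lay close together, whereas the DM arrays, all of them higher, were far apart. The group values were 5.23 ± 0.11 (SD, n = 3) and 6.86 ± 1.16 (SD, n = 3). HQYDP was 3.09-fold lower, the largest change of the 39, with a log2 difference of -1.63, a standard error of 0.45 and an adjusted p of 0.401 from limma. It passed the study thresholds with each array left out, from -1.01 without DM replicate 2 to -2.15 without DM replicate 3. It did not pass with the methods' t-test. Without DM replicate 3 its adjusted p from limma was 0.0382, in a fit where 151 of all genes had one under 0.05, against 3 with all 6 arrays.

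Nfkbia, which encodes IκBα, the inhibitor that NF-kB induces to end its own activity, had 8.19, 8.19 and 8.08 in HQYDP against 8.37, 9.64 and 8.34 in DM. Its log2 difference of -0.63 (standard error 0.31) rested on DM replicate 2 and was -0.20 without it. Nfkbie, or IκBε, had 5.70, 5.85 and 5.37 against 6.16, 6.33 and 5.79, a log2 difference of -0.45 (standard error 0.19), with DM replicate 3 inside the HQYDP range. Nfkbib, or IκBβ, had a log2 difference of 0.08 (standard error 0.19). None of these inhibitors passed the study thresholds.

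The subunits of the alternative pathway did not overlap between the groups. Nfkb2, the p100 precursor of p52, had 6.0, 5.60 and 6.21 in HQYDP and 6.48, 6.56 and 6.51 in DM, for a log2 difference of -0.58 (standard error 0.18). Its fold of 1.49 was just short of the threshold of 1.5. Relb, its partner, had 5.54, 5.17 and 5.41 against 5.72, 5.95 and 6.05, a log2 difference of -0.53 (standard error 0.17) and a fold of 1.44. Without DM replicate 2 the differences were -0.56 and -0.51, and without DM replicate 3 they were -0.58 and -0.46. HQYDP replicate 2 was the lowest array in both genes, and without it the differences were smallest, at -0.41 and -0.43.

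Of the other subunits, Nfkb1 alone had groups that did not overlap. Nfkb1, the precursor of p50, had 7.37, 7.33 and 7.41 in HQYDP against 7.75, 8.0 and 7.47 in DM, for a log2 difference of -0.37 (standard error 0.17) without overlap. Rela, or p65, had 8.61, 8.53 and 7.97 against 9.08, 8.62 and 8.11, a log2 difference of -0.23 (standard error 0.26), and the groups overlapped. Rel, the c-Rel subunit of lymphoid and myeloid cells, had -0.29 (standard error 0.21), also with overlap. Without DM replicate 2 these 3 had -0.24, -0.22 and -0.05, and without DM replicate 3 they had -0.51, -0.48 and -0.48. Differences between subunits were not tested. The IκB kinases Ikbkb and Ikbke had -0.20 and -0.11, and Tnip1, which works with the deubiquitinase A20 to restrain NF-kB, had -0.13. Arrays measure RNA, so these values do not show whether NF-kB proteins were active in the nucleus.

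Promoters are shown for 3 NF-kB genes without overlap between the groups, because NF-kB genes are known to be under the control of NF-kB itself. RefSeq promoters of the GRCr8 build, 250 bases before to 50 bases after the annotated start, were matched by gene ID for 28 of the 39 genes. They were searched on both strands for the classical NF-kB consensus, a degenerate motif of 10 bases, and no other motif was searched. Below, 5′ to 3′ along the gene, capitals mark the matches.
Nfkbiz, chr11:58251471-58251770, plus strand: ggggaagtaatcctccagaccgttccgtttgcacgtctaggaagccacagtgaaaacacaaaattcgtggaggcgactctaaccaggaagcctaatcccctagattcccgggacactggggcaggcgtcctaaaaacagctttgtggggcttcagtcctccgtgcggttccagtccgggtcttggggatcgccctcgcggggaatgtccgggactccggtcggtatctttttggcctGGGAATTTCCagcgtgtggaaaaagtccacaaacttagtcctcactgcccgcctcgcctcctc
Nfkb2, chr1:255108124-255108423, plus strand: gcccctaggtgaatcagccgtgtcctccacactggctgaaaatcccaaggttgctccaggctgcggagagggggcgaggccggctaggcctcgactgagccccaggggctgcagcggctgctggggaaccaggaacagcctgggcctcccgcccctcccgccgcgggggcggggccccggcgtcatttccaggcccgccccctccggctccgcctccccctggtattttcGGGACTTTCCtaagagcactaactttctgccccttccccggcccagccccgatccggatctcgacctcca
Nfkbia, chr6:78597023-78597322, minus strand: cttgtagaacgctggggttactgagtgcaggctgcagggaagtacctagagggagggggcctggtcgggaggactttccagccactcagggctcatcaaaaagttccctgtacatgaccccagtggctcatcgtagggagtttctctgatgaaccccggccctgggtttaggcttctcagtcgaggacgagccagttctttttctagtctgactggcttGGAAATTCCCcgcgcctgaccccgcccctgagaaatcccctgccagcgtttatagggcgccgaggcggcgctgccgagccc
The match in Nfkbiz, GGGAATTTCC, began 13 bases before the start, and the same 10 bases occur in the Nfkb1 promoter, 3 bases after its start. That of Nfkb2, GGGACTTTCC, began 20 bases before the start and that of Nfkbia, GGAAATTCCC, 31 bases before it. Read on the other strand, the Nfkbia match is the same 10 bases as in Nfkbiz.

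Of the 28 promoters, 11 held the consensus, which is 39.3%, against 7.51% of the 33469 promoters in the table. They were 7 of 9 in the NF-kB group, namely Nfkb1, Nfkb2, Rel, Nfkbia, Nfkbie, Nfkbiz and Tnip1, but 2 of 9 receptors, Tlr2 and Nod1, 2 of 7 adaptors and kinases, Irak3 and Syk, and 0 of 3 inflammasome genes. Relb and Lbp had no promoter in the table. The consensus is rich in G and C, and the median share of G and C was 57.8% in these promoters and 64.3% in those of the NF-kB group, against 51.7% in all. The part of base composition in the difference was not tested. The median log2 difference was -0.45 in the 11 genes with a match and -0.32 in the 17 without, and 6 of the 11 and 2 of the 17 had groups that did not overlap, with HQYDP lower, against 6.01% of all genes. Of the 11, 7 were NF-kB genes, so the split partly coincides with the gene groups. Within the NF-kB group the median was -0.45 in the 7 with a match and -0.08 in the 2 without. Among adaptors and kinases it was -0.60 in 2 and -0.11 in 5. Among the receptors the order was reversed, with -0.16 in the 2 with a match and -0.34 in the 7 without. The parts of match and gene group in the split were not tested. A match is a run of letters and does not show that NF-kB binds there.

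**Figure D3:**
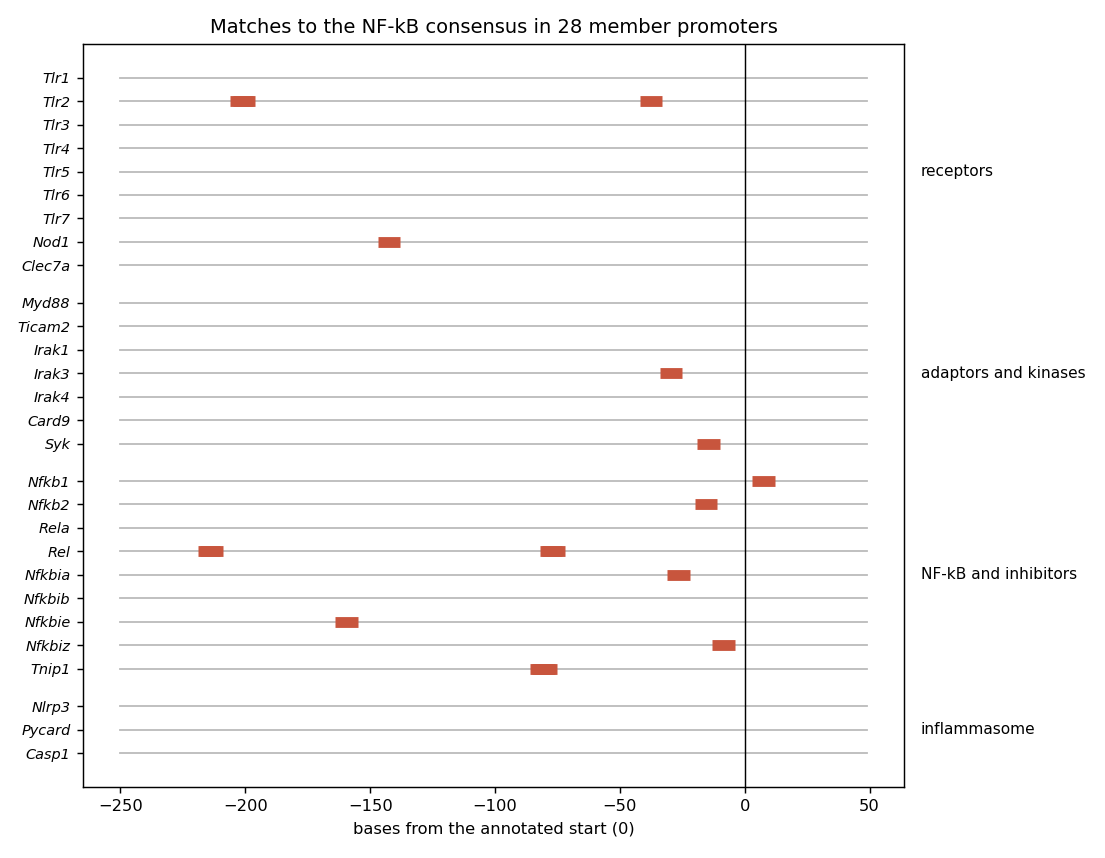
Position of each match to the NF-kB consensus (bars) in the 28 promoters, in bases from the annotated start at 0, with grey lines for the 300 bases searched. Matches lie in 7 of 9 promoters of the NF-kB group and in 0 of 3 of the inflammasome genes.

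In the inflammasome group 1 of 5 genes was lower at the study thresholds, against 1.82% of all genes. All 5 had log2 differences below 0, against 50.3% of all genes, with a median of -0.37. None was lower and the median was -0.10 without DM replicate 2, and without DM replicate 3 the count was 3 and the median -0.70. In those fits 1.21% and 4.02% of all genes were lower. Pycard encodes ASC, the adaptor that joins sensors such as Nlrp3 to Casp1. It had 5.66, 5.38 and 5.46 in HQYDP and 5.90, 6.36 and 6.08 in DM, without overlap. The group values were 5.50 ± 0.14 (SD, n = 3) and 6.11 ± 0.23 (SD, n = 3). HQYDP was 1.53-fold lower, with a log2 difference of -0.61, a standard error of 0.17 and an adjusted p of 0.411 from limma. The fold lay close to the threshold, and Pycard did not pass it without HQYDP replicate 2, with -0.55, without DM replicate 2, with -0.49, or after quantile normalization, with -0.56. Like Syk, it was chosen by the study on these samples.

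The sensor and the effectors overlapped between the groups. Nlrp3 had 4.17, 3.77 and 3.97 in HQYDP against 4.53, 5.09 and 3.93 in DM, for a log2 difference of -0.55 (standard error 0.27). It was -0.26 without DM replicate 2 and -0.84, past the study thresholds, without DM replicate 3. Casp1 had 6.09, 5.60 and 6.28 against 6.08, 7.30 and 5.66, a log2 difference of -0.36 (standard error 0.37). Its spread in DM came mostly from replicate 2, and without that array the difference was 0.12. Casp4, known in mouse as caspase-11, which senses endotoxin in the cytosol, had 6.36, 6.35 and 6.40 against 6.77, 7.62 and 5.83, a log2 difference of -0.37 (standard error 0.36) that was 0.07 without DM replicate 2. In Casp4 the HQYDP arrays lay close together, with DM arrays on both sides. Gsdmd, the pore former of pyroptosis, had -0.20 (standard error 0.16).

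The 3 DM rats stood in the same order in the mean of each of the 4 groups, replicate 2 highest and replicate 3 lowest. DM replicate 2 was the highest array in 25 of 39 genes, against 20.7% of all genes. The mean log2 value of the 39 genes was 6.01, 5.92 and 5.93 in HQYDP and 6.34, 6.69 and 5.95 in DM, so that DM replicate 3 lay within the HQYDP range. On the first principal component of all genes, with 35.7% of the variance, DM replicate 3 also lay at -14.9 among the HQYDP arrays at -16.2 to -10.6, and DM replicates 1 and 2 at 17.9 and 39.5. With 1 array left out at a time, the number of genes lower at the study thresholds was 2 without HQYDP replicate 2, 9 without DM replicate 1 and 13 without DM replicate 3, while the other omissions gave 3 to 6. The 9 and the 13 each included Lbp, Syk, Nfkbiz and Pycard. Without DM replicate 2 it was 3, with Pycard lost, and the median log2 difference was -0.15 instead of -0.32. No gene of the 39 was higher in any of these fits. Without DM replicate 3, 4.02% of all genes were lower, so that the background rose as well.

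**Figure D4:**
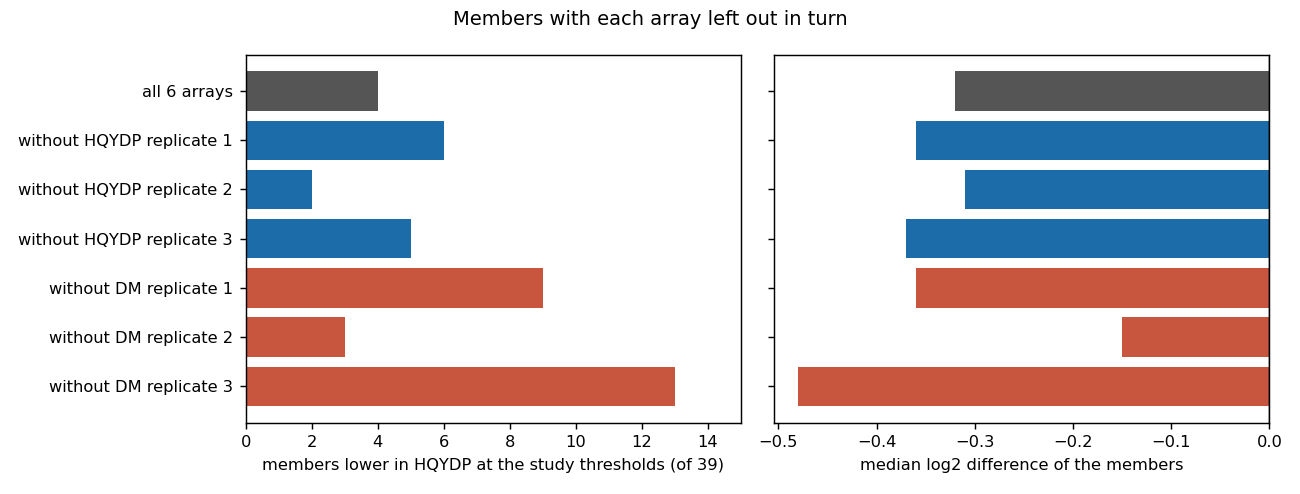
Number of the 39 genes lower in HQYDP at the study thresholds (left) and their median log2 difference (right) with all 6 arrays and with each array left out. The count runs from 2 without HQYDP replicate 2 to 13 without DM replicate 3, and the median from -0.15 without DM replicate 2 to -0.48 without DM replicate 3.

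Other genes of the same pathways were read from lists of receptor, NF-kB and inflammasome partners. Of 31 further receptor pathway genes 3 were lower and 1 higher at the study thresholds, against 1.82% and 1.46% of all genes, and their median log2 difference was -0.06. With the methods' t-test 1 was lower and none higher, against 0.655% and 0.875% of all genes. Cd14, the endotoxin coreceptor that takes over from Lbp, had 5.73, 5.59 and 5.46 in HQYDP and 6.94, 7.19 and 5.85 in DM, without overlap, and a log2 difference of -1.06 (standard error 0.30). Unc93b1, the chaperone that brings Tlr3, Tlr7 and other receptors to endosomes, had 5.40, 5.55 and 5.37 against 6.41, 6.35 and 5.84, also without overlap, and a log2 difference of -0.76 (standard error 0.19). Both are much used by myeloid cells. Tlr13 had -1.01 (standard error 0.43) and did not pass without DM replicate 2, with -0.50. Tlr12 was the higher gene. It had 6.63, 7.41 and 6.68 in HQYDP and 5.69, 6.30 and 6.18 in DM, for a log2 difference of 0.85 (standard error 0.24). The smallest adjusted p among these 4 was 0.307 from limma, for Unc93b1. The count of lower genes was 2 without HQYDP replicate 1 or 2 or DM replicate 2, and 7 without DM replicate 3. In the same order, 2.02%, 1.45%, 1.21% and 4.02% of all genes were lower in those fits.

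Of 20 further NF-kB pathway genes 1 was lower and none higher, against 1.82% and 1.46% of all genes, with a median of -0.11. None was lower with the methods' t-test, against 0.655% of all genes. The lower gene was Birc3, the NF-kB-induced ubiquitin ligase cIAP2, with 5.83, 5.39 and 5.63 in HQYDP and 6.78, 7.77 and 6.06 in DM. Its log2 difference was -1.25 (standard error 0.36), and -0.80 without DM replicate 2. The count was 2 without HQYDP replicate 3 and 3 without DM replicate 3, against 1.76% and 4.02% of all genes in those fits. Of 21 further inflammasome genes 3 were lower and 1 was higher, against 1.82% and 1.46% of all genes, with a median of -0.22. With the methods' t-test 1 was lower and none higher, against 0.655% and 0.875% of all genes. Il1rn, the interleukin-1 receptor antagonist, had 3.07, 2.48 and 3.35 in HQYDP against 4.30, 4.52 and 3.91 in DM, with no overlap. Its log2 difference was -1.28, with a standard error of 0.24 and an adjusted p of 0.228 from limma. These are dim values, with a mean at percentile 15.7 of all genes. A filter on the dimmest 25% of genes removes Il1rn and leaves 16 genes of this list, 2 of them lower, against 2.25% of all genes kept. The ATP receptor P2rx7, which triggers Nlrp3, had -0.66 (standard error 0.22), and Casp12 had -1.09 (standard error 0.46), with -0.45 without DM replicate 2, where it did not pass. The count of lower genes was 1 without HQYDP replicate 2 or 3 or DM replicate 1, and 5 without DM replicate 3. In the same order, 1.45%, 1.76%, 1.87% and 4.02% of all genes were lower in those fits.

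Nlrp6, an epithelial sensor of the same family as Nlrp3, was the higher gene of the inflammasome list, with 7.59, 7.61 and 7.56 in HQYDP and 6.40, 6.45 and 7.40 in DM. Its log2 difference was 0.84 (standard error 0.25), with DM replicate 3 close below the HQYDP arrays, and it did not pass with the methods' t-test. The cytokines that inflammasomes mature did not pass. Il1b had 3.40, 3.57 and 3.36 in HQYDP against 3.69, 6.17 and 3.42 in DM, so that DM replicate 2 alone stood apart, and Il18 had a log2 difference of -0.21 (standard error 0.27).

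Among 30 genes known as NF-kB targets 7 were lower at the study thresholds, or 23.3%, against 1.82% of all genes, and none was higher, with a median log2 difference of -0.39. With the methods' t-test 2 were lower, against 0.655% of all genes, and the smallest adjusted p from limma was 0.307. They were the chemokines Ccl2, Cxcl1 and Cxcl10 with -1.66, -0.72 and -1.03, the adhesion molecules Icam1 and Selp with -0.98 and -0.64, the iron-binding Lcn2 with -2.04 and the complement component C3 with -1.37. Without DM replicate 2 Cxcl1 and Lcn2 did not pass, with -0.32 and -1.53, while Ccl2 and Cxcl10 passed with -0.98 and -0.60. The count was 5 without DM replicate 2, with a median of -0.17, 5 without HQYDP replicate 2 and 13 without DM replicate 3, with a median of -0.64. In the same order, 1.21%, 1.45% and 4.02% of all genes were lower in those fits. Il6, Tnf and Vcam1 did not pass, with -0.48, -0.20 and -0.51. Il1rn, Icam1 and Selp are also in the gene tables of the study, so their passing is not independent evidence. Every one of these targets is known to respond to other factors as well.

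Markers of macrophages had lower means in HQYDP beside these genes. Of 17 macrophage and monocyte markers 12 were lower and none higher at the study thresholds, against 1.82% and 1.46% of all genes. Their median was -0.84, and among the 12 were Ptprc with -0.91, Csf1r with -0.84 and Cd68 with -0.90. Only 1 of the 17 was lower with the methods' t-test, against 0.655% of all genes, and the smallest adjusted p from limma was 0.334. In 3 of the 17 the groups did not overlap, with HQYDP lower, against 6.01% of all genes. The mean log2 value of the 17 was 5.74 to 6.19 in HQYDP and 6.01 to 7.17 in DM, with DM replicate 2 highest and DM replicate 3 lowest within DM, the order seen in the receptors. The number that were lower was 2 without DM replicate 2, with a median of -0.49, 4 without HQYDP replicate 2 or DM replicate 1, 5 without HQYDP replicate 3 and 16 without DM replicate 3. In the same order, 1.21%, 1.45%, 1.87%, 1.76% and 4.02% of all genes were lower in those fits. Tlr4, Tlr7, Clec7a, Irak3, Syk, Pycard and Cd14 are all expressed by macrophages, and the part of the macrophage signal in their values was not tested.

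Of 11 neutrophil markers 2 were lower, Cxcr2 and Lcn2, and of 11 T and B cell markers 1 was lower, Cd4, against 1.82% of all genes. Rat macrophages also carry Cd4, and Lcn2 was already counted among the NF-kB targets above. The neutrophil markers had a median log2 difference of -0.14, with mean log2 values of 4.11 to 4.21 in HQYDP and 4.30 to 4.76 in DM. Most of them were dim, Cxcr2 among them at percentile 16.2 of all genes. A filter on the dimmest 25% of genes left 4, of which 1 was lower, against 2.25% of all genes kept, with a median of -0.49. The means of the T and B cell markers were 4.58 to 5.0 and 4.76 to 5.49. None of 8 dendritic cell markers passed, with 5.06 to 5.11 and 5.08 to 5.67. Without DM replicate 2 these counts were 1, 0 and 0, against 1.21% of all genes. Without DM replicate 3 they were 4, 4 and 1, against 4.02% of all genes. With the methods' t-test none of these leukocyte markers passed. The labelled tissue showed its own markers on all arrays, with mean log2 values of 10.54 to 10.94 for 7 genes of the proximal tubule, of which none passed. Of 4 thick ascending limb markers 2 were higher, Umod with 0.65 and Cldn16 with 0.73, against 1.46% of all genes. Both also passed with the methods' t-test, where 0.875% of all genes were higher. Neither passed the fold threshold without DM replicate 3, with 0.57 each, and only 1 passed without HQYDP replicate 3. Umod is in the gene tables of the study as well. The 3 podocyte markers Nphs1, Wt1 and Podxl had log2 differences of 0.49, 0.39 and 0.47. In each all HQYDP arrays were above all DM arrays, an order found in 6.08% of all genes, with an unadjusted p under 0.05 from limma. The fold was under 1.5, however, and the smallest adjusted p from limma was 0.496. The part of this shift in the values of the 39 genes was not tested. None of 4 collecting duct and 3 endothelial markers passed, with medians of 0.23 and 0.16.

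**Figure D5:**
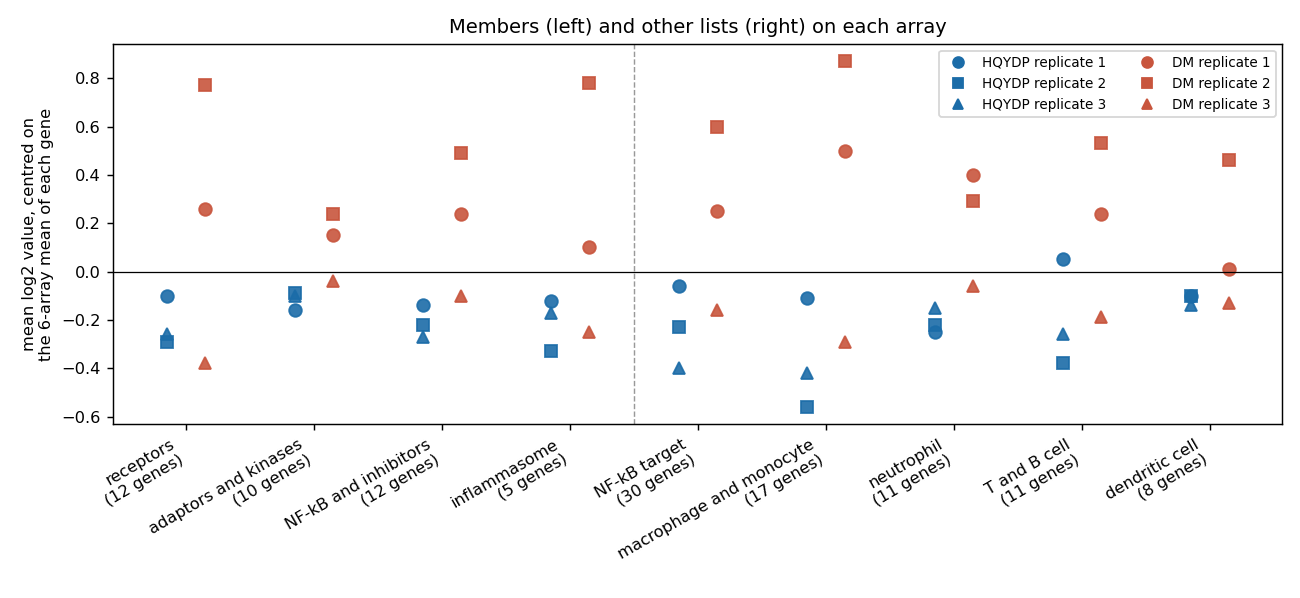
Mean log2 value of each list on each array, with every gene centred on its mean over the 6 arrays, for the 4 groups of genes described here (left of the dashed line) and for NF-kB targets and leukocyte markers (right). DM replicate 2 is the highest array in every list shown but that of the neutrophils, where DM replicate 1 is higher, and DM replicate 3 lies among or near the HQYDP arrays.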

How the data were processed

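Kidney RNA of 3 HQYDP and 3 DM rats had been labelled with biotin and hybridized to Affymetrix Rat Gene 2.0 ST arrays. The authors deposited log2 values, 1 per transcript row, and they were used as comparable between arrays. A base of 2 was taken from their range, 0.35 to 13.59, and neither software nor normalization is named, being not given in the sources used here. Array medians differed by at most 0.15, and no 2 arrays were identical. The precision is limited by the number of arrays. The p-values weigh the difference of the group means against the spread between these rats. For limma's p-values the spread of each gene was drawn toward that of all genes.

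Of 36685 rows, 18511 were paired with 1 gene symbol by the platform annotation, 575 with several and 17599 with none. Each of 18166 genes was read from its brightest row on average, and no filter on dim genes was applied. All 39 genes matched RefSeq by Entrez ID with the same symbol. HQYDP and DM were compared by moderated two-sided tests (lmFit and eBayes of limma 3.58.1, R 4.3.3, no covariates), and p-values over all genes were adjusted by Benjamini-Hochberg. The fit was tested on simulated data with independent genes and equal spread in both groups, which does not cover genes that vary together or groups of unequal spread. The genes, the lists and the rule for naming them (all 39 genes, and from other lists those past the study thresholds and up to 4 more) were chosen with earlier results of these data known. Alternatives were other tests, an intensity trend, array weights, a replicate block, other normalizations, a filter on dim genes, other row and fold rules, and each array left out.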

Additional observations from a re-analysis of the deposited data

How the results depend on the processing

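Over 18 alternatives no gene of the 39 was higher at the study thresholds, and the median log2 difference stayed below 0 in each. Many of these could not move the median. Other tests, the intensity trend, the replicate block and the fold rules leave the differences of group means as they are. The row rules cannot change the 39 genes, each of which had a single row. The number of lower genes was 2 with the methods' t-test and with Welch's test, Syk and Pycard in both, 2 with a fold over 2, 9 with no fold minimum, and 2 to 13 with 1 array left out. The median was -0.48 to -0.15 with 1 array left out. Of the other lists, Welch's test gave 1 lower gene each among the further receptor genes, the further inflammasome genes, the NF-kB targets and the macrophage markers. With quantile normalization 3 genes were lower and with array weights 4, of which Lbp, Syk and Nfkbiz were in the original 4, since Pycard fell under the fold threshold in both. The filter on dim genes removed Ly96 alone and kept all 4. With the replicate block 7 genes were lower, namely the 4 and Tlr7, Clec7a and Nfkbia. Same-numbered arrays did not pair throughout, with correlations of deviations of 0.14, -0.08 and 0.21, and 2 of the 3 HQYDP arrays correlated best with their own number. Over all genes the lower calls were 330 and the higher calls 266, and they were 119 and 159 with the methods' t-test, 85 and 115 with Welch's test, 682 and 658 with no fold minimum and 80 and 43 with a fold over 2. Lower calls were 219 without DM replicate 2 and 730 without DM replicate 3.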

Other observations

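The genes described here varied more between DM rats than between HQYDP rats. The SD over the 3 arrays was larger in DM in 32 of the 39 genes, against 64.4% of all genes. The median SD of the 39 was 0.14 in HQYDP and 0.31 in DM, whereas over all genes it was 0.17 and 0.22. In Irak3 it was 0.03 against 0.46, in Casp4 0.03 against 0.90, in Nfkbia 0.06 against 0.74 and in Nfkbiz 0.11 against 1.16. Nfkb2 went the other way, with 0.31 in HQYDP and 0.04 in DM. The difference in spread was not tested.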
